A study of Mus musculus with 32 samples.

Results

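The 9 genes described here encode the lecticans, the link proteins and the tenascins of the extracellular matrix of the central nervous system. They were chosen by name, with earlier results of these data known: Acan, Bcan, Ncan and Vcan (4 lecticans), Hapln1, Hapln2 and Hapln4 (3 link proteins) and Tnr and Tnc (2 tenascins). All 9 were found among the 42524 genes of the count table through their Ensembl identifiers, and all 9 passed the filter on low counts in every fit. Their messenger RNA was measured in spinal cord of 32 mice in 8 groups of 4. The groups were WT and G93A mice, untreated or given OKN-007 (a nitrone dissolved in the drinking water), at 90 or 155 days of age in the labels. The methods of the study put the first age slightly later. G93A mice carry the human SOD1 gene with the G93A mutation under its own human promoter, so that the transgene is not restricted to a cell type, and they model amyotrophic lateral sclerosis (ALS). WT mice were littermates without the transgene, on the C57BL/6J background that all groups share. The study worked predominantly with females, took one piece of cord of a fixed weight per mouse and did not state the level of the cord or the dose for the sequenced mice.

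Perineuronal nets are lattices of matrix that enclose the cell body and proximal dendrites of certain neurons, among them spinal motor neurons and fast-spiking interneurons. Lecticans are chondroitin sulfate proteoglycans whose N-terminal end binds hyaluronan, a long sugar chain made at the cell surface, and whose C-terminal end binds tenascins. Link proteins clamp the lectican to hyaluronan, and tenascin-R joins several lecticans to each other. Aggrecan (Acan) is the lectican most tied to nets, whereas brevican (Bcan), neurocan (Ncan) and versican (Vcan) are also found in the diffuse matrix and around nodes of Ranvier.

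RefSeq promoters are printed for 4 of the genes: Acan and Hapln1, which were lower in late G93A cord, and Vcan and Tnc, which were higher. Each line holds 250 bases before and 50 bases after an annotated start, 5′ to 3′ on the strand of the gene, at chr7:79052976-79053275 (+) for Acan, chr13:89540386-89540685 (+) for Hapln1, chr13:89742463-89742762 (-) for Vcan and chr4:64046966-64047265 (-) for Tnc, all in the GRCm38.p6 build. Capitals mark matches on either strand to 5 motifs: the AP-1 site TGANTCA, the STAT site TTCNNNGAA, the GC box GGGCGG, the TATA box TATAAA and the E-box CACGTG.
Acan: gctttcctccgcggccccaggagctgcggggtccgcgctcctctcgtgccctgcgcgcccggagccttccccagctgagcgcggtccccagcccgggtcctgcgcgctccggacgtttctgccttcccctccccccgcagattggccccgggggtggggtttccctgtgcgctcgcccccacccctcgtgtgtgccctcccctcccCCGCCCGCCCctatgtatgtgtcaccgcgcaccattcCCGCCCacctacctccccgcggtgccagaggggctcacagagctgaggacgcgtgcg
Hapln1: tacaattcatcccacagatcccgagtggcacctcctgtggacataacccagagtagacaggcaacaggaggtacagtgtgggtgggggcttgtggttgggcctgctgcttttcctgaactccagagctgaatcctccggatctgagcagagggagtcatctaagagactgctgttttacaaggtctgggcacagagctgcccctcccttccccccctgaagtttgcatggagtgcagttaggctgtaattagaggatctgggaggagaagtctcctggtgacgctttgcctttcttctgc
Vcan: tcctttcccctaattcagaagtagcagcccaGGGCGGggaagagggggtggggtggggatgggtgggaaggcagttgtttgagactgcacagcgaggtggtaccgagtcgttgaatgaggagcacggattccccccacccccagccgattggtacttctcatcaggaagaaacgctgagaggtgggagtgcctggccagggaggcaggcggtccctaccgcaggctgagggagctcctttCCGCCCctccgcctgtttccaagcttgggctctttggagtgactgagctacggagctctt
Tnc: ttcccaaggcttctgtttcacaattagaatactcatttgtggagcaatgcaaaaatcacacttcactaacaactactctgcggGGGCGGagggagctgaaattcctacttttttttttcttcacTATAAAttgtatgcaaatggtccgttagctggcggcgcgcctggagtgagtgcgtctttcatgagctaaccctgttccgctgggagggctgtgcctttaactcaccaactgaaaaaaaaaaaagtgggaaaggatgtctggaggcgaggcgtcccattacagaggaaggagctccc
The Acan window had 74% G and C and held 3 GC boxes, of which 2 overlap in 1 run of capitals. The Vcan window held 2 GC boxes, the Tnc window held 1 GC box and 1 TATA box, and the Hapln1 window held no match. GC boxes were found in 35.7% of the 32851 RefSeq promoters of the same length and TATA boxes in 13.6%. No AP-1 site (7.81% of all promoters), STAT site (8.30%) or E-box (7.15%) was found in the windows of the 8 members that could be matched. Among the matched members not printed, Bcan and Ncan held a GC box and Ncan a TATA box, while Hapln2 and Tnr held neither. Tnc had 2 entries, of which 1 is printed, and Hapln4 had no entry. A match describes letters in these windows and not a bound site, and no measurement of binding was made here.

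Total counts per library ran from 19701722 to 30138257, and the median was 26658755. Levels are given as CPM, counts relative to library size, scaled by edgeR's TMM factors over the 32 mice, and 3 counts in the smallest library correspond to 0.152 CPM. Groups were compared by edgeR's quasi-likelihood test, two-sided, with Benjamini-Hochberg adjustment over all genes tested, and a gene is called changed at an adjusted p under 0.05. Fold changes are on the log2 scale with standard errors (SE). The libraries were not uniform in what tissue they held. A score of 8 Hox genes of the caudal cord (mean log2(CPM + 1)) was under 1.2 in 7 mice, 4 at 90 days and 3 at 155 days (G93A untreated replicates 9 and 10 and G93A OKN-007 replicate 13), which are called the mice of low Hox score below. At 155 days this score ran from 2.22 to 3.43 in the untreated WT mice and from 0.416 to 2.25 in the untreated G93A mice, which overlapped narrowly. Among treated mice it ran from 3.05 to 3.40 in WT and from 0.945 to 2.43 in G93A mice, without overlap, and 5 of the 7 Hox genes tested were lower in the G93A mice. The part of this score in the members' differences was not tested beyond the fits with it as a covariate and without the low mice. Those fits cannot separate groups that hardly overlap in the score, so score and genotype cannot be told apart at 155 days. Liver markers summed to 162 CPM in G93A untreated replicate 12 at 155 days. Meningeal fibroblast markers summed to 94.0 CPM in WT untreated replicate 3 at 90 days, which also had a low Hox score, while the other 3 mice of its group ran from 34.0 to 38.7 CPM. Mouse Sod1 did not differ in a way that passed the test between untreated genotypes at 155 days (log2 fold change -0.10, adjusted p = 0.458 by edgeR's quasi-likelihood test), and the human transgene is not a row of this mouse table, so the genotype labels were not checked by it.

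Per kilobase of exon, the WT cord at 155 days held more brevican and Hapln2 message than any other member. Bcan stood at 77.9 ± 6.42 CPM per kb and Hapln2 at 68.1 ± 6.49 (SD, n = 4 untreated WT mice), whose ranges of mean ± SD overlap. Hapln4, a link protein of brainstem and spinal nets, followed at 39.0 ± 3.60 CPM per kb, and Ncan at 6.11 ± 0.538. In CPM not divided by length, Hapln2 (162 ± 15.4) and Hapln4 (153 ± 14.1) overlapped within their SD. Tnr (3.96 ± 0.854), Hapln1 (3.76 ± 0.955) and Acan (3.54 ± 0.357) had levels per kb that overlapped within their SD. Vcan (1.36 ± 0.104) and Tnc (0.413 ± 0.094) were lowest. Of the summed lectican level per kb, Bcan made up 87.5% ± 1.83 (SD, n = 4) and Acan 4.01% ± 0.628.

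The question of the genotype comparison at 155 days was how late disease differs from the healthy cord. In untreated mice, 7 of the 9 members passed the test, against 39.5% of the 18675 genes tested. The 4 genes Acan, Bcan, Hapln1 and Hapln4 were lower in G93A mice, as were 18.2% of all genes, and the 3 genes Vcan, Tnr and Tnc were higher, as were 21.3%, whereas Ncan and Hapln2 did not pass. In 6 of the 9, the values of the 4 G93A mice and the 4 WT mice did not overlap, against 32.7% of all genes. Over the members the median log2 fold change was -0.06, beside 0.00 over all genes tested. The RNA comes from bulk tissue, so that fewer cells of a type and less RNA per cell cannot be told apart.

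**Figure D1:**
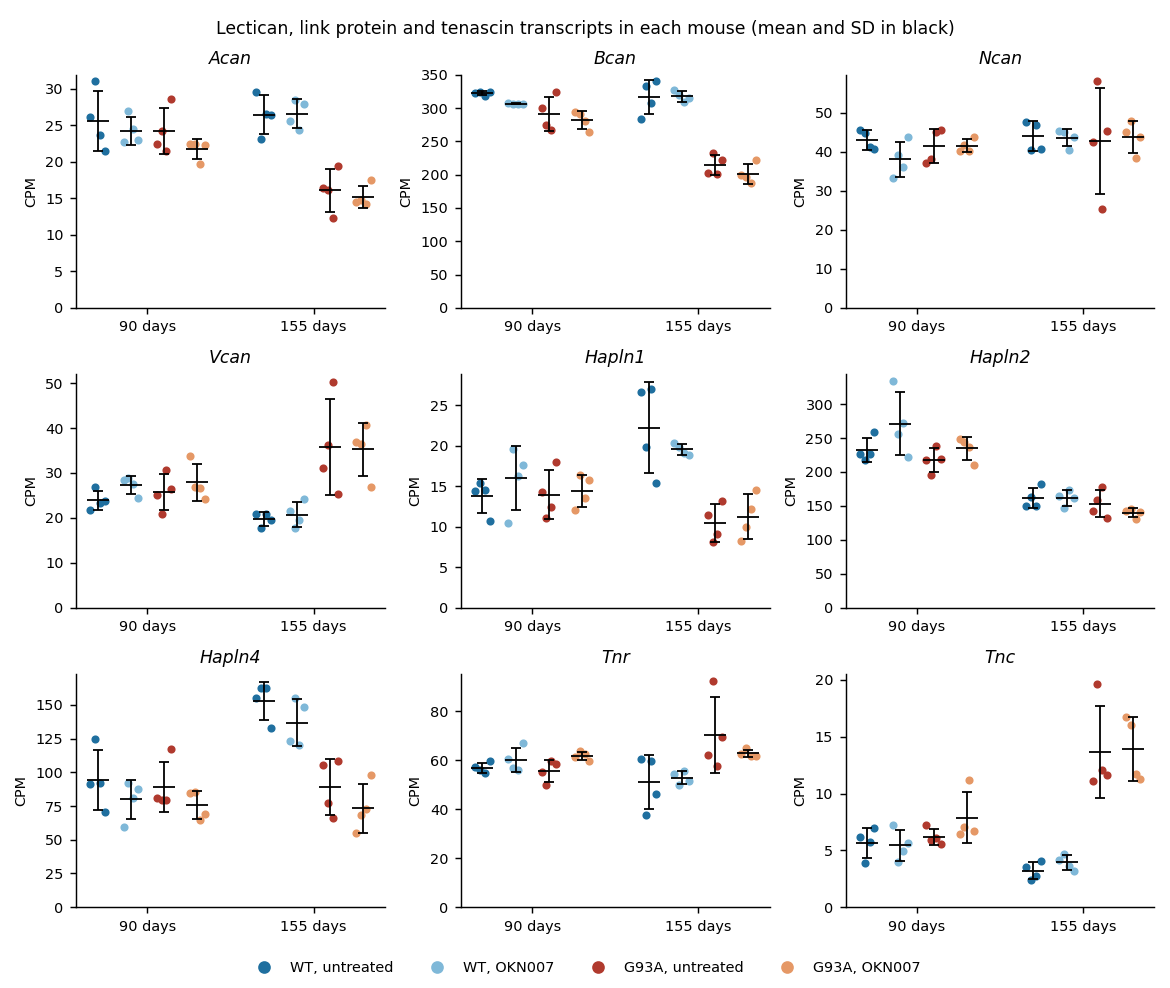
Level of each gene in CPM (vertical axes, from 0) in each of the 32 mice (points), with the group mean and SD in black, for WT and G93A mice, untreated or given OKN-007, at 90 and 155 days. At 155 days Acan, Bcan, Hapln1 and Hapln4 sit lower and Vcan and Tnc higher in both G93A groups than in the WT group of the same treatment, while the 4 groups at 90 days lie close together.

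Aggrecan, the proteoglycan that marks most nets, was measured at 29.6, 23.1, 26.6 and 26.5 CPM in the 4 untreated WT mice and at 16.5, 16.1, 12.3 and 19.5 CPM in the 4 untreated G93A mice at 155 days. Every G93A mouse was below every WT mouse. Acan fell by 0.70 on the log2 scale (SE 0.117, adjusted p = 1.1e-04, edgeR's quasi-likelihood test), to 0.615 of the WT level with a 95% interval of 0.519 to 0.730. Among the treated mice, WT values ran from 24.3 to 28.5 CPM and G93A values from 14.2 to 17.5 CPM, again without overlap, and Acan fell by 0.77 (SE 0.117, adjusted p = 3.4e-05). The gap held as a call in all 16 fits that left out 1 mouse, in both comparisons.

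Brevican, the most abundant lectican here, stood at 284, 333, 307 and 341 CPM in untreated WT mice and at 203, 233, 201 and 222 CPM in untreated G93A mice at 155 days. The highest G93A mouse was well below the lowest WT mouse. Bcan fell by 0.55 on the log2 scale (SE 0.073, adjusted p = 9.7e-06, edgeR's quasi-likelihood test) in untreated mice. It fell by 0.62 in treated mice (SE 0.073, adjusted p = 1.7e-06), where WT mice ran from 309 to 328 CPM and G93A mice from 188 to 223 CPM. Of the lectican level per kb, Bcan then made up 83.4% ± 1.41 in untreated G93A mice.

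Hapln1, the link protein of aggrecan-rich nets, was measured at 26.6, 19.8, 27.0 and 15.4 CPM in untreated WT mice and at 11.5, 8.07, 9.11 and 13.1 CPM in untreated G93A mice. The WT mice spread widely, and the lowest of them was still above the highest G93A mouse. The log2 fold change was -1.07 (SE 0.185, adjusted p = 1.6e-04, edgeR's quasi-likelihood test), the lowest among the members. In treated mice Hapln1 fell by 0.77 (SE 0.184, adjusted p = 0.00243), from 18.8 to 20.3 CPM in WT mice to 8.24 to 14.6 CPM in G93A mice.

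Hapln4, which binds brevican at net-bearing neurons and their synapses, was at 155, 162, 162 and 133 CPM in untreated WT mice and at 105, 77.2, 66.3 and 108 CPM in untreated G93A mice. The G93A mice fell into a higher and a lower pair, both below all WT mice. Hapln4 fell by 0.76 on the log2 scale in untreated mice (SE 0.162, adjusted p = 9.9e-04, edgeR's quasi-likelihood test) and by 0.87 in treated mice (SE 0.162, adjusted p = 2.8e-04). Of the summed link protein level per kb, its share was 35.2% ± 3.69 in untreated WT and 25.7% ± 6.63 in untreated G93A mice (SD, n = 4).

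Hapln2, the link protein of nodes of Ranvier made by oligodendrocytes, did not pass the test at 155 days. It stood at 150, 163, 150 and 183 CPM in untreated WT mice and at 143, 159, 177 and 132 CPM in untreated G93A mice, and these values overlapped. The log2 fold change was -0.06 (95% interval -0.25 to 0.12, adjusted p = 0.592, edgeR's quasi-likelihood test), and -0.17 in treated mice (-0.35 to 0.01, adjusted p = 0.131), whose groups did not overlap. The treated difference was called when only the compared groups were fitted (adjusted p = 0.0234).

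Neurocan, a lectican of the diffuse matrix, also did not pass. Ncan was at 47.8, 40.5, 46.8 and 40.8 CPM in untreated WT mice and at 42.6, 58.2, 25.3 and 45.3 CPM in untreated G93A mice. The G93A group held both the highest and the lowest of these 8 values, and its SD of 13.5 CPM was above the 3.87 CPM of the WT group. Its log2 fold change was -0.02 (95% interval -0.35 to 0.31) in untreated mice and 0.04 (-0.29 to 0.37) in treated mice.

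Versican, a large lectican also made by oligodendrocyte precursors, moved the other way from Acan and Bcan. Vcan was at 20.9, 17.7, 20.8 and 19.5 CPM in untreated WT mice and at 31.0, 36.3, 50.4 and 25.3 CPM in untreated G93A mice at 155 days. All G93A mice were above all WT mice, and G93A replicate 11 was the highest at 50.4 CPM. Vcan rose by 0.87 on the log2 scale in untreated mice (SE 0.166, adjusted p = 3.9e-04, edgeR's quasi-likelihood test) and by 0.81 in treated mice (SE 0.165, adjusted p = 6.5e-04). Its share of the lectican level per kb was 1.54% ± 0.201 in untreated WT and 3.95% ± 1.42 in untreated G93A mice.

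Tenascin-C, a glycoprotein that is abundant in the developing nervous system and in reactive tissue, had the highest log2 fold change of the members. Tnc was at 3.58, 2.43, 2.79 and 4.04 CPM in untreated WT mice and at 11.1, 19.7, 12.1 and 11.6 CPM in untreated G93A mice at 155 days. Each G93A mouse was well above every WT mouse, and replicate 10 stood apart at 19.7 CPM. Tnc was 4.24-fold higher in untreated G93A mice, with a 95% interval of 3.14 to 5.74 (log2 fold change 2.09, SE 0.208, adjusted p = 2.2e-07, edgeR's quasi-likelihood test). In treated mice WT values ran from 3.18 to 4.71 CPM and G93A values from 11.3 to 16.7 CPM, and the log2 fold change was 1.86 (SE 0.203, adjusted p = 6.2e-07).

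Tenascin-R, the oligodendrocyte and neuron product that joins lecticans in nets, was at 60.5, 37.8, 59.5 and 46.1 CPM in untreated WT mice and at 62.0, 92.5, 57.8 and 69.4 CPM in untreated G93A mice. The groups overlapped, since G93A replicate 11 at 57.8 CPM was below the WT replicates 1 and 3. Tnr rose by 0.48 on the log2 scale (SE 0.136, adjusted p = 0.00865, edgeR's quasi-likelihood test) in untreated mice. This call was lost with the Hox score as a covariate (0.25, adjusted p = 0.282) and without the mice of low Hox score (0.34, adjusted p = 0.0935). The latter fit kept only replicates 11 and 12 of the untreated G93A group, and the replicate 10 left out had its highest Tnr. Fewer mice and the Hox score cannot be told apart there. In treated mice the groups did not overlap, the log2 fold change was 0.29 and Tnr did not pass (adjusted p = 0.101), although it did when only the compared groups were fitted (adjusted p = 8.9e-04).

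In the treated mice as a whole, 6 of the 9 members passed at 155 days, against 41.5% of the genes tested. Of these, 4 were lower (18.2% of all genes) and 2 higher (23.3% of all genes). The groups of 8 members did not overlap, against 44.5% of all genes. Without the mice of low Hox score, 6 members were called in untreated and 6 in treated mice, and without the 3 mice with the highest liver markers the counts were 7 and 6. The share over all genes was not computed for these fits, which hold fewer mice.

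**Figure D2:**
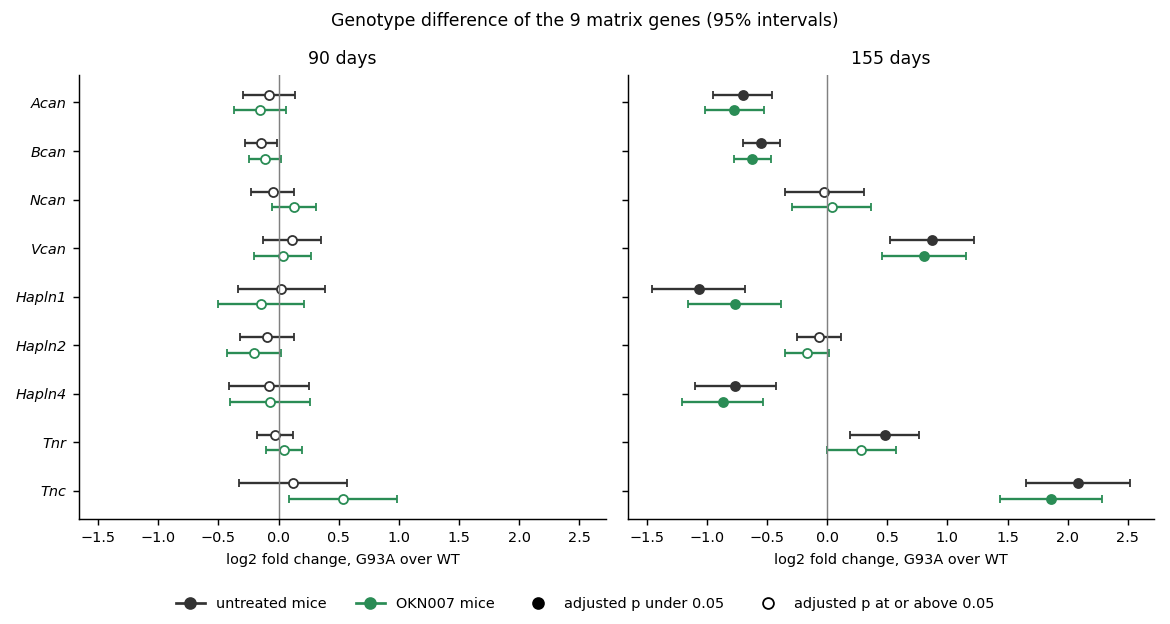
Log2 fold change of G93A over WT mice (horizontal axis) for each gene at 90 days (left) and 155 days (right), in untreated mice (grey) and OKN-007 mice (green), 4 mice against 4, with 95% intervals; filled points have an adjusted p under 0.05. No point is filled at 90 days, and at 155 days 7 are filled in untreated and 6 in treated mice.

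Markers of several cell types moved with these differences. In untreated mice at 155 days, all 4 neuron markers (Rbfox3, Snap25, Syt1 and Nefm) were lower in G93A mice, and their summed level ran from 6336 to 8547 CPM in WT and from 3344 to 4945 CPM in G93A mice. Of 5 motor neuron markers 4 were lower, with sums of 112 to 157 CPM and 66.9 to 92.7 CPM. Of genes typical of fast-spiking, net-bearing interneurons, Pvalb (log2 fold change -0.43, adjusted p = 0.0108, edgeR's quasi-likelihood test) and Kcnc1 (-0.63, adjusted p = 0.00218) were lower too. These markers stand beside the lower Acan, Bcan, Hapln1 and Hapln4, and their part in those differences was not tested. All 5 astrocyte markers and 3 of 4 oligodendrocyte precursor markers, given next, were higher in the same mice. The lower members, Bcan among them, therefore stand beside those as well.

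Beside the higher Vcan, Tnr and Tnc, all 5 astrocyte markers were higher, and their sum ran from 3756 to 4172 CPM in WT and from 12664 to 16041 CPM in untreated G93A mice. All 5 microglia markers were higher, with sums of 110 to 141 CPM and 514 to 987 CPM. Of 4 markers of oligodendrocyte precursors 3 were higher and Bcas1 did not pass, with sums of 1290 to 1435 CPM and 1413 to 1522 CPM. The median log2 fold change of these markers was 0.65. Cspg4, among the higher markers, is itself a proteoglycan and is given again below with the other matrix genes. Of 3 meningeal fibroblast markers 2 were higher, with sums of 33.1 to 42.2 CPM and 43.1 to 56.9 CPM. Of 4 oligodendrocyte markers 1 was higher, beside a Hapln2 that did not pass. The part of these cell types in the members' differences was not tested.

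**Figure D3:**
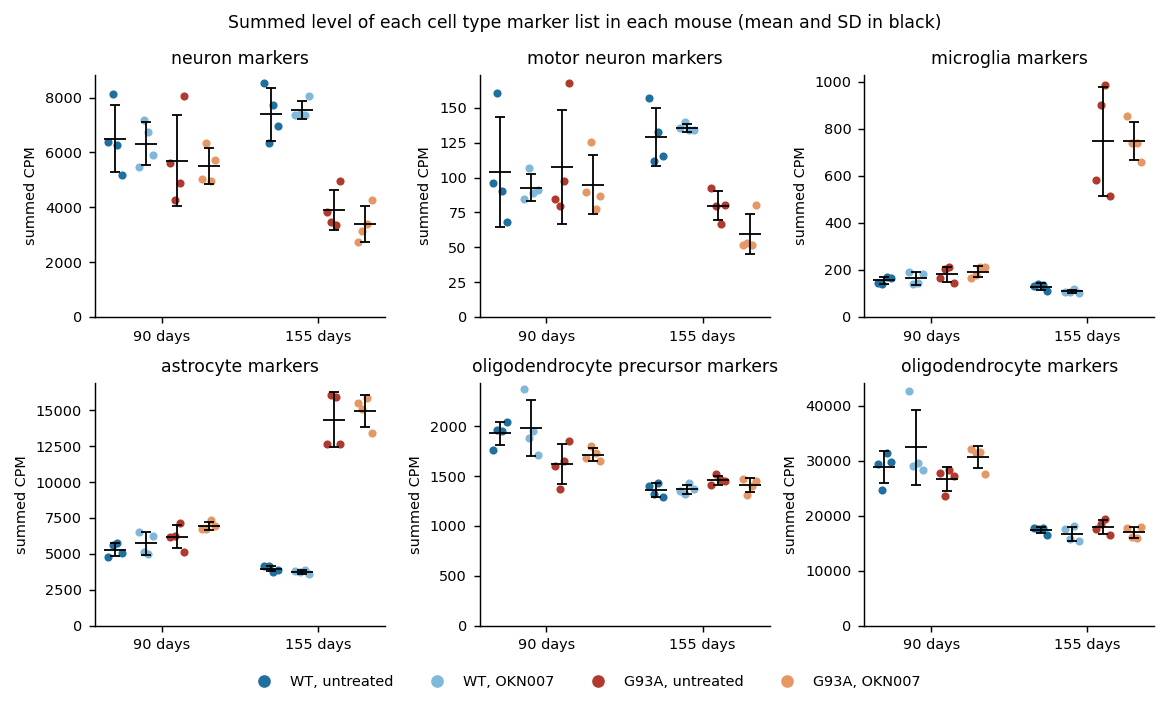
Summed CPM of 6 cell type marker lists (vertical axes, from 0) in each mouse (points) with the group mean and SD in black, for the 4 groups at 90 and 155 days. At 155 days both G93A groups lie below the WT groups for neuron markers and above them for astrocyte markers, and oligodendrocyte markers are lower at 155 than at 90 days in every group.

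In the mouse genome each link protein gene lies next to a lectican gene among protein-coding genes: Hapln1 next to Vcan, Hapln2 next to Bcan, Hapln4 next to Ncan, and Hapln3, a link protein that is no member here, next to Acan. The neighbours did not share their calls at 155 days in untreated mice, and the difference between neighbours was not tested. Hapln1 was lower while Vcan was higher, Hapln4 was lower while Ncan did not pass, and Bcan was lower while Hapln2 did not pass. Hapln3, at 1.06 ± 0.216 CPM in WT mice, had a log2 fold change of -0.04 (adjusted p = 0.909, edgeR's quasi-likelihood test) beside the lower Acan.

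At 90 days, close to the first signs of disease, no member passed the test in untreated mice, in treated mice or with both treatments pooled. Over all genes, 0%, 0% and 0.0265% of 18899 were called in these comparisons by edgeR's quasi-likelihood test. At an unadjusted p under 0.05 there was 1 member in untreated mice (Bcan), 1 in treated mice (Tnc) and 2 with both treatments pooled (Bcan and Tnc), against 5.96%, 3.95% and 6.61% of all genes. DESeq2 also called 0 members in each.

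With both treatments pooled, Bcan had a log2 fold change of -0.13 at 90 days (95% interval -0.22 to -0.04, adjusted p = 0.551, edgeR's quasi-likelihood test). Untreated WT mice stood at 323, 325, 318 and 325 CPM, treated WT mice at 307, 306, 306 and 306 CPM, untreated G93A mice at 300, 275, 267 and 324 CPM and treated G93A mice at 293, 292, 281 and 265 CPM. The untreated groups overlapped through G93A replicate 12, and the treated groups did not overlap. Tnc had a log2 fold change of 0.33 (95% interval 0.01 to 0.65, adjusted p = 0.737, edgeR's quasi-likelihood test), and in the treated G93A mice 1 animal stood at 11.2 CPM while the others ran from 6.47 to 7.05 CPM. In treated mice the groups of 2 members (Acan and Bcan) did not overlap, against 2.84% of all genes, and neither passed. In untreated mice all 9 overlapped, while 2.4% of all genes did not.

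The difference between the ages was tested itself in a fit of all 32 mice. In untreated mice the genotype difference at 155 days departed from that at 90 days in 7 of the 9 members, against 21.2% of 19829 genes. It was further down by 0.63 for Acan (SE 0.164), 0.41 for Bcan (SE 0.096), 1.11 for Hapln1 (SE 0.273) and 0.69 for Hapln4 (SE 0.248) on the log2 scale. It was further up by 0.75 for Vcan (SE 0.213), 0.49 for Tnr (SE 0.161) and 1.95 for Tnc (SE 0.308). Adjusted p-values by edgeR's quasi-likelihood test ran from 2.0e-05 for Tnc to 0.0437 for Hapln4.

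In treated mice 5 members passed that test (Acan, Bcan, Vcan, Hapln4 and Tnc), against 23% of all genes, and Hapln1 had a value of -0.65 with an adjusted p of 0.0813 by edgeR's quasi-likelihood test. Without the mice of low Hox score, these counts were 4 in untreated mice (Bcan, Vcan, Hapln1 and Tnc) and 2 in treated mice (Bcan and Vcan). The share over all genes was not computed for this smaller fit either. The values that lost the call kept their direction. Acan was at -0.61 in untreated (adjusted p = 0.0671, edgeR) and -0.55 in treated mice (0.117), Hapln4 at -0.71 (0.120) and -0.58 (0.240), Tnr at 0.37 in untreated (0.169) and Tnc at 0.98 in treated mice (0.0701). The Hapln4 value in untreated mice passed narrowly, and without G93A untreated replicate 12 of 90 days, which stood at 117 CPM beside others of 79.4 to 80.7 CPM, its adjusted p was 0.139.

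Age was compared in untreated WT mice alone, where 4 of the 9 members passed, against 24.9% of all genes. The groups of 3 members (Vcan, Hapln2 and Hapln4) did not overlap, against 18.9% of all genes. Hapln4 was higher at 155 days, at 133 to 162 CPM against 70.4 to 124 CPM at 90 days, with a log2 fold change of 0.70 (SE 0.176, adjusted p = 0.00461, edgeR's quasi-likelihood test). Hapln1 was also higher (0.69, SE 0.190, adjusted p = 0.00865), with groups that touch at 15.4 CPM, and the call was lost without WT replicate 4 of 90 days (adjusted p = 0.0616). Hapln2 was lower at 155 days, at 150 to 183 CPM against 218 to 259 CPM, and fell by 0.52 (SE 0.099, adjusted p = 6.1e-04).

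Tnc was lower at 155 days in untreated WT mice, where it fell by 0.81 (SE 0.225, adjusted p = 0.00868, edgeR's quasi-likelihood test) from 3.85 to 6.96 CPM to 2.43 to 4.04 CPM, with groups that overlapped. Oligodendrocyte markers summed to 24680 to 31495 CPM at 90 days and to 16477 to 17842 CPM at 155 days in these mice, beside the lower Hapln2. Beside the higher Hapln1 and Hapln4, Kcnc1 was also higher at 155 days (log2 fold change 0.82, adjusted p = 0.00106), and Pvalb did not pass (-0.16, adjusted p = 0.324). The part of these markers was not tested. The labels name no batch, so age and any batch cannot be told apart, and 4 members were also called without the mice of low Hox score.

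The treatment comparison asked whether OKN-007 altered the messages. No member passed in WT or G93A mice at 90 or 155 days, and edgeR's quasi-likelihood test called 0% of all genes in each of these 4 comparisons. At an unadjusted p under 0.05 there were 0 members in each, against 4.07% of all genes in WT mice at 90 days, 2.94% in WT mice at 155 days, 5.56% in G93A mice at 90 days and 4.04% in G93A mice at 155 days. DESeq2 called 0 members in each. Over the 9 members and 4 comparisons, log2 fold changes ran from -0.28 (Hapln4, G93A mice at 155 days) to 0.35 (Tnc, G93A mice at 90 days).

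The groups of 1 member did not overlap in WT mice at 90 days, against 2.03% of all genes. Bcan stood at 318 to 325 CPM in untreated and at 306 to 307 CPM in treated WT mice, with a log2 fold change of -0.08 (95% interval -0.21 to 0.05). The intervals give the size of drug effect that these mice do not exclude. In G93A mice at 155 days the 95% interval of the log2 fold change was -0.32 to 0.17 for Acan, -0.23 to 0.07 for Bcan, -0.35 to 0.33 for Vcan and -0.35 to 0.44 for Tnc. For Hapln4 it was -0.62 to 0.06, with untreated values of 66.3 to 108 CPM and treated values of 54.8 to 97.8 CPM that overlapped. For Hapln1 it was -0.29 to 0.50. The test of whether the drug effect differed between genotypes also called 0 members at both ages, with 0% of all genes called. At an unadjusted p under 0.05 there were 0 members, against 2.81% of all genes at 90 days and 2.34% at 155 days.

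**Figure D4:**
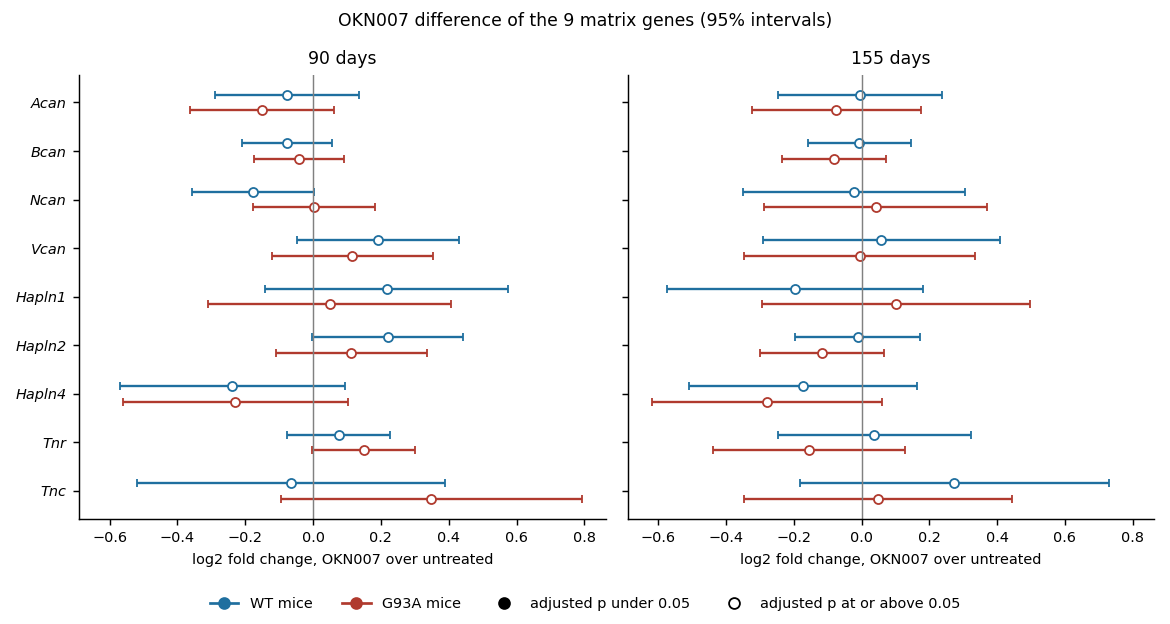
Log2 fold change of OKN-007 over untreated mice (horizontal axis) for each gene at 90 days (left) and 155 days (right), in WT mice (blue) and G93A mice (red), 4 mice against 4, with 95% intervals. All points are open, which stands for an adjusted p at or above 0.05, and lie between -0.28 and 0.35.

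Genes that make, carry and cut the same matrix were followed in 5 lists. In untreated mice at 155 days 21.3% of all genes were higher and 18.2% lower in G93A mice, with a median log2 fold change of 0.00, and in treated mice 23.3% were higher and 18.2% lower, with a median of 0.02. Of 10 hyaluronan genes, 5 were higher and 1 lower in untreated G93A mice, and the list's median was 0.16. The receptor Cd44 went from 10.6 ± 1.09 to 70.7 ± 16.3 CPM (SD, n = 4), a log2 fold change of 2.75 (SE 0.147, adjusted p = 8.9e-11, edgeR's quasi-likelihood test). The hyaluronan receptor Hmmr (1.85), the synthase Has2 (1.65) and the hyaluronidases Hyal1 (0.80) and Hyal2 (0.37) were also higher. The synthase Has3 was lower, from 3.06 ± 0.333 to 1.81 ± 0.661 CPM (log2 fold change -0.73, adjusted p = 0.00793). In treated mice the same 5 were higher and Has3 lower.

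Of 20 genes for chondroitin sulfate synthesis 19 were tested, of which 4 were higher and 5 lower, with a median of -0.05. These counts are near the shares over all genes (21.3% higher and 18.2% lower). Among the higher were Dse, an epimerase that makes dermatan sulfate (0.67), the sulfotransferase Chst11 (0.63) and the synthase Chsy1 (0.51). Among the lower were the synthase Chsy3 (-0.66), the sulfotransferase Chst15 (-0.38) and the epimerase Dsel (-0.34). In treated mice 6 were higher and 1, Chst15, was lower, where 23.3% and 18.2% of all genes were. Of 5 other chondroitin sulfate proteoglycans, Bgn (1.28), Cspg4 (0.87) and Ptprz1 (0.31) were higher in untreated mice, and Cspg5 and Dcn did not pass.

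Of 15 lectican proteases and their inhibitors 14 were tested, and 7 were higher (21.3% of all genes) and 1 lower (18.2% of all genes), with a median of 0.32. The inhibitor Timp1 went from 0.165 ± 0.132 CPM, close to the level of 3 counts, to 18.4 ± 7.25 CPM. The protease Adamts1 went from 27.7 ± 7.91 to 62.5 ± 14.3 CPM (log2 fold change 1.19, adjusted p = 1.1e-04, edgeR's quasi-likelihood test). Mmp2 (1.14), Timp4 (0.76) and Timp2 (0.41) were higher as well. Mmp9 was lower, from 8.87 ± 0.751 to 2.87 ± 0.249 CPM (log2 fold change -1.61, adjusted p = 3.0e-08). In treated mice the counts were again 7 higher and 1 lower.

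Of 12 receptors and ligands of the net 10 were tested, and 2 were higher, a share near the 21.3% of all genes: the adhesion molecule Nrcam (0.61, adjusted p = 9.5e-05, edgeR's quasi-likelihood test) and Rtn4rl1, a Nogo receptor family member (0.39, adjusted p = 0.0138). In treated mice the same 2 were higher and 1 was lower, the receptor phosphatase Ptprs, named after its value was seen (-0.16, adjusted p = 0.0497). At 90 days no gene of the 5 lists passed in untreated mice, in treated mice or with both treatments pooled.

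**Figure D5:**
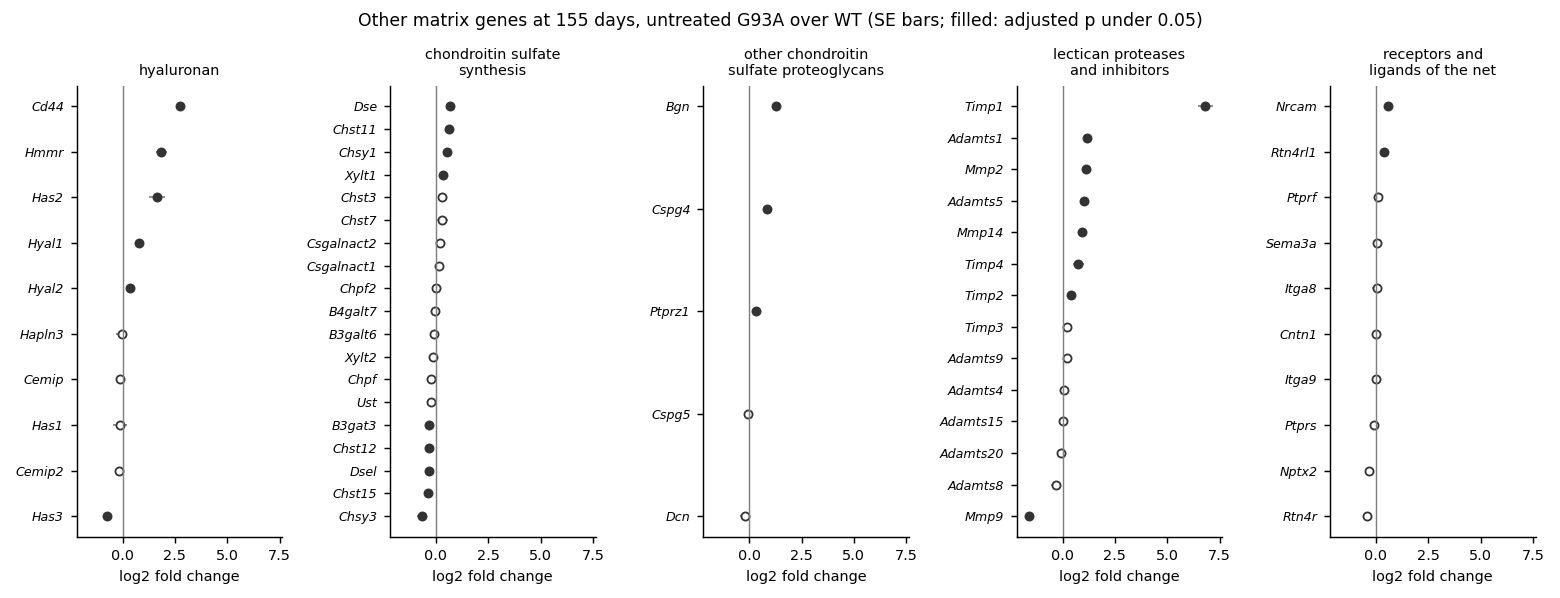
Log2 fold change of untreated G93A over WT mice at 155 days (horizontal axes, 4 mice against 4) for the tested genes of 5 lists, with bars of 1 SE; filled points have an adjusted p under 0.05. Timp1 and Cd44 lie farthest to the right and Mmp9 farthest to the left.

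Members also varied from mouse to mouse within groups. Over the 32 mice, as deviations of log2(CPM + 1) from the mean of the own group, Acan and Hapln4 had a Pearson r of 0.78, Hapln1 and Hapln4 of 0.76, and Ncan and Tnr of 0.67. The lowest values were -0.66 for Hapln4 and Tnc and -0.64 for Hapln1 and Hapln2. Bcan had an r of 0.31 with Acan, 0.31 with Hapln4 and -0.01 with Hapln1. The same libraries give both genes of a pair, so shared tissue makeup and depth enter these values, and they are given as a description. By the same measure, the gene most like each member was Camk1d for Acan (0.89), Sox18 for Bcan (0.65), Hells for Ncan (0.79), Atp6v0e for Vcan (0.83), Scn1a for Hapln1 (0.93), Plin3 for Hapln2 (0.80), Arhgap44 for Hapln4 (0.96), Ank2 for Tnr (0.81) and Glt8d1 for Tnc (0.86). Each is the highest r in a search among the 19829 genes tested, and picking the highest alone raises it.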

How the data were processed

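RNA of 32 mice in 8 groups of 4 was sequenced after poly(A) selection with a stranded kit. The authors counted reads on genes and deposited raw counts without normalization. Per the paper, reads were trimmed with Trimmomatic, aligned with STAR and counted with HTSeq on GENCODE M10 (GRCm38). The submitters' processing notes instead name STAR, featureCounts, edgeR and the builds GRCm39 and hg38, and 820 gene identifiers are absent from GENCODE M21, so no gene coordinates of the counts are given. Whether counting used the strand is not given in the sources used here. Symbols were found for 41203 of 42524 genes (96.9%). Counts were analysed with edgeR 4.0.16 in R 4.3.3 (filterByExpr, TMM, estimateDisp, glmQLFit, glmQLFTest), in 1 fit of 16 mice per age and, for ages, 1 fit of 32 mice, at an adjusted p of 0.05. Standard errors came from the quasi-likelihood F statistic. Levels per kilobase used the union of exons in GENCODE M21. Intervals cover 95%.

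The members, the gene lists and the rule for naming list genes (up to 3 with the largest and 3 with the smallest log2 fold change past the threshold in untreated mice at 155 days) were chosen with earlier results of these data known. Likeness is Pearson's r of within-group deviations. Alternatives were DESeq2 1.42.0, RLE factors, no filter, robust dispersions, the Hox score as a covariate, a fit of just the groups compared, 1 fit of all 32 mice, a replicate block and leaving out each mouse. Leaving out the mice of low Hox score or high liver markers was chosen after seeing the data. The method was tested on counts simulated from edgeR's own model, which cannot show how it behaves where tissue differs between groups. Nothing states whether replicates were independent beyond being separate mice, and no pair of libraries of a group was alike within sampling noise (lowest chi-square per gene 2.74). Some marker lists are not reported here.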

Additional observations from a re-analysis of the deposited data

Results flagged for a closer look

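In 4 of 72 groups of 4 mice, 1 mouse lay beyond Dixon's 95% limit for a gene, where chance gives about 1 in 20 groups, or 3.6. These were Acan in G93A OKN-007 replicate 15 at 90 days (19.7 CPM, the next 22.3), Hapln4 in G93A untreated replicate 12 at 90 days (117 CPM, the next 80.7), Tnc in G93A OKN-007 replicate 15 at 90 days (11.2 CPM, the next 7.05) and Tnc in G93A untreated replicate 10 at 155 days (19.7 CPM, the next 12.1).

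The genotype difference differed between 155 and 90 days by the interaction test of edgeR for 7 members in untreated mice and 5 in treated mice. On the log2 scale the untreated values were -0.63 for Acan, -0.41 for Bcan, 0.75 for Vcan, -1.11 for Hapln1, -0.69 for Hapln4, 0.49 for Tnr and 1.95 for Tnc. The treated values were -0.65 for Acan, -0.54 for Bcan, 0.74 for Vcan, -0.82 for Hapln4 and 1.29 for Tnc. Untreated and treated values come from different mice.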

How the results depend on the processing

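Over the alternatives run, the count of members called in the genotype comparisons stayed between 6 and 7 in untreated and between 6 and 8 in treated mice at 155 days and at 0 at 90 days, and the 4 treatment comparisons and both interactions with treatment gave 0 throughout. The count moved by over 1.5 times only without the mice of low Hox score, where the age difference of the genotype difference was called for 4 members in untreated and 2 in treated mice, with fewer mice in the fit; the cause was not tested. Leaving out each mouse in turn gave 5 to 7 members in untreated and 5 to 6 in treated mice there, and 3 to 4 for age in WT mice. The share over all genes was not computed for the alternatives. None of them separates the Hox score from genotype at 155 days. Of 2196 values of single members under an alternative, 2165 stayed on their side of the threshold, 25 lost and 6 gained a call, and none that was called changed sign.

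The Tnr age difference in untreated mice lost its call with the Hox score as a covariate (adjusted p = 0.109, edgeR) and without G93A untreated replicate 10 (0.128), WT untreated replicate 2 (0.067) or replicate 4 (0.0548) of 155 days. The Hapln4 age difference in untreated mice lost it with robust dispersions (adjusted p = 0.0556, edgeR) and without any 1 of 11 mice, at adjusted p of 0.0503 to 0.139.

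Replicate numbers are shared between ages only. Of 16 pairs of mice with the same number, 3 had a correlation of deviations over 0.1 (range -0.22 to 0.26). With 4 mice per group this measure cannot exclude that the numbers pair the mice. With a replicate block, 7 members were called in the untreated and 6 in the treated age difference, Hapln1 being gained in treated mice (-0.70, adjusted p = 0.0118, edgeR), and 4 for age in WT mice. With 4 mice per group, changes within the intervals given are not excluded.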
